A study of Homo sapiens with 6 samples.

Results

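The genes described here carry newly made proteins into the endoplasmic reticulum (ER) and through the first steps of secretion. They were chosen by symbol from the deposited expression table. The rule took the SRP proteins of the signal recognition particle and the SEC genes of the translocation channel, of signal peptidase and of the COPII coat. It also took the SEC22 genes, the SSR genes of the translocon-associated protein complex, SPCS1 to SPCS3 and the protein disulfide isomerases PDIA3 to PDIA6. The COPI coat genes and the TMED (p24) cargo receptors completed the list. The rule found 56 of the 16834 genes in the table, and all 56 were annotated as protein-coding. The pseudogene SEC63P1, which fits the pattern of the SEC symbols, was left out.

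The study expressed ccTaggedRP in HEK293-T Flp-In cells, a human embryonic kidney line into which a single copy of the construct was inserted. ccTaggedRP is made as a single polypeptide from the CAG promoter and is cut into 2 tagged versions of the large-subunit ribosomal protein RPL10a. Flag-RPL10a-hCdt carries a degron of Cdt1 and accumulates before DNA replication, and HA-RPL10a-hGem carries a degron of Geminin and accumulates from S phase to mitosis. RNA bound to the tagged ribosomes of asynchronous, untreated cells was recovered with Flag antibody in 3 libraries (Flag-IPs) and with HA antibody in 3 libraries (HA-IPs), so every library came from cells that carry both tags.

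A secreted or membrane protein usually begins with a hydrophobic signal that the signal recognition particle binds as it leaves the ribosome. The particle brings the ribosome to the Sec61 channel, where the chain enters the ER membrane or lumen, signal peptidase removes the signal, and disulfide isomerases help the chain fold. Cargo then leaves the ER in vesicles with a COPII coat, sorted in part by the p24 proteins. The SNARE SEC22B takes part in the fusion of these vesicles. COPI coats carry proteins back from the Golgi to the ER. Both coats assemble from proteins made in the cytosol, whereas most proteins of the translocation machinery and the p24 proteins are themselves inserted into the ER membrane.

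Levels are given as normalized counts, the reads of a gene divided by a size factor per library, and differences as log2 of HA-IP over Flag-IP, with the standard error (SE) and the adjusted p-value of limma over all genes. Libraries held 23174532 to 44134833 reads, and 55 of the 56 members had a mean of at least 50 normalized counts, so the spread between libraries and not the depth limited most values. Nothing in the labels says that the 3 IPs of a group came from separate cultures, and the p-values then measure only the spread between these libraries, which may be technical. In such bulk RNA a lower share of cells that contribute tagged ribosomes and less RNA bound per cell cannot be told apart. Before the members are described, it has to be said that 20 of 20 heart muscle genes that could be followed were higher in the Flag-IPs, with summed levels of 101910 to 213416 normalized counts against 2160 to 20192 in the HA-IPs, although the labels name a kidney line. Of 8 fibroblast genes, 5 were higher in the Flag-IPs (sums of 5256 to 7785 against 1890 to 2510), and of 5 endothelial genes, 3 were (413 to 512 against 303 to 332). Of 8 genes typical of the HEK293 line, 7 did not pass the test and PAX2 was higher in the Flag-IPs, with sums of 72755 to 78946 in the Flag-IPs against 76927 to 78435 in the HA-IPs. The part of the other cell types' RNA in the differences below was not tested, beyond the values given for single genes.

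The members divided between the IPs. In the HA-IPs, 9 of 56 were higher (16.1% of the members, against 5.79% of all genes), and in the Flag-IPs 8 were higher (14.3% against 7.10%). The other 39 members did not pass the threshold of 0.05. The 9 genes higher in the HA-IPs encode 2 proteins of the signal recognition particle (SRP54 and SRP68), 3 proteins of COPII (SEC23IP, SEC24A and SEC24B) and 4 of COPI (COPA, COPB1, COPB2 and COPG2). The 8 genes higher in the Flag-IPs encode the translocation factor SEC62, 3 of the 4 subunits of the translocon-associated protein complex (SSR2, SSR3 and SSR4), the SNARE SEC22B, the p24 proteins TMED4 and TMED5, and the COPI subunit COPE. All of these differences were small: the folds ran from 1.13 for SRP68 to 1.22 for COPB1 in the HA-IP direction, and from 1.16 for TMED4 to 1.58 for SEC62 in the Flag-IP direction. The median difference was -0.066 over the members and -0.0049 over all genes. Values of the 2 groups did not overlap for 29 members, 18 with the HA-IPs above and 11 with the Flag-IPs above, where 16.1% of all genes did so in each direction. The counts depended on which library was left out, as did the counts over all genes, given further below. Without Flag-IP 1 all 17 called members kept their calls. Without Flag-IP 2, 1 member was called for the HA-IPs and 2 for the Flag-IPs, and without Flag-IP 3 the counts were 13 and 16. Without HA-IP 1, HA-IP 2 or HA-IP 3 they were 5 and 4, 4 and 3, and 4 and 6, and with a single prior variance for all genes no member passed in limma (11 and 10 did at an unadjusted p under 0.05).

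**Figure D1:**
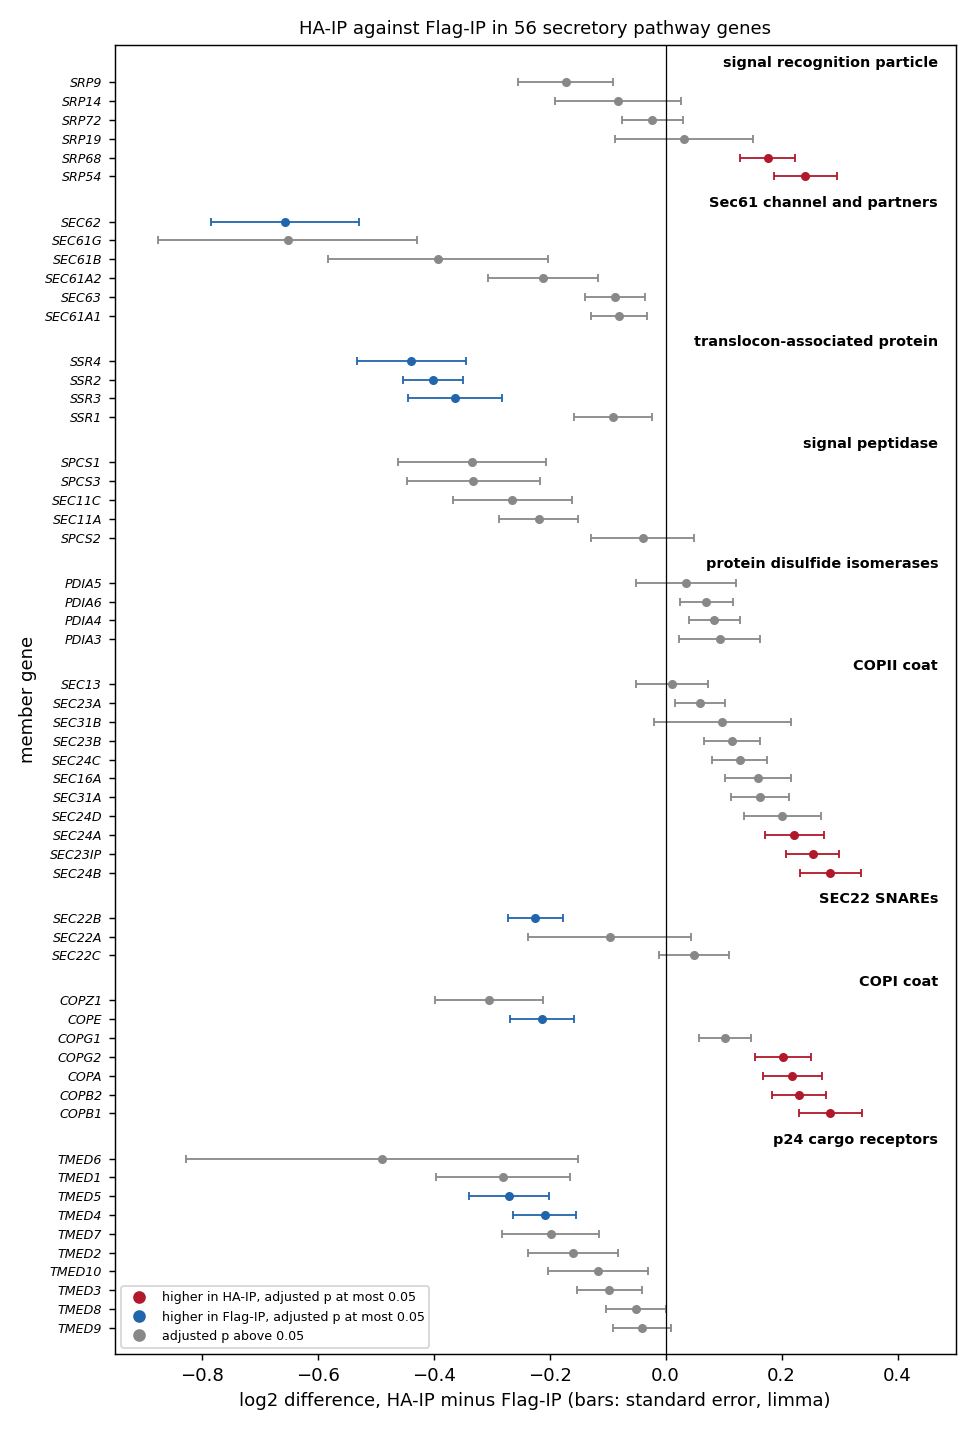
Log2 difference of HA-IP minus Flag-IP for each of the 56 members, grouped by role, with bars for the standard error from limma (3 libraries per group). Red points are the 9 genes higher in the HA-IPs and blue points the 8 higher in the Flag-IPs. All 11 COPII points lie above 0. SEC13 does not with totals set equal or without Flag-IP 2, Flag-IP 3, HA-IP 2 or HA-IP 3. With quantile scaling neither SEC13 nor SEC23A does. All 10 points of the p24 group, the p24-related TMED8 included, lie below 0 (TMED3 does not with GC content and length trends removed).

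Of the 6 measured proteins of the signal recognition particle, 2 were higher in the HA-IPs. SRP54 (ENSG00000100883), the GTPase that binds the signal as it leaves the ribosome, had 3643, 3544 and 3866 normalized counts in the Flag-IPs against 4200, 4283 and 4581 in the HA-IPs. All 3 HA-IPs lay above all 3 Flag-IPs, and the log2 difference was 0.24 (SE 0.054, adjusted p = 0.015). SRP68 (ENSG00000167881), which binds the particle's RNA together with SRP72, had 9518, 9327 and 9746 in the Flag-IPs against 11047, 10312 and 10947 in the HA-IPs. Its groups did not overlap either, with a log2 difference of 0.18 (SE 0.047, adjusted p = 0.032), a call lost with quantile scaling (adjusted p = 0.13) and with totals set equal (0.095). SRP72, its partner, had a log2 difference of -0.02 (SE 0.053, adjusted p = 0.82). The remaining SRP genes did not pass: SRP9 and SRP14, whose products form the Alu-binding pair that slows translation, had differences of -0.17 and -0.08, and SRP19, needed for assembly of the particle, had 0.03. Per kilobase of the canonical transcript, the level of SRP68 was the highest of the particle, at 3585 normalized counts, and that of SRP19 the lowest, at 173.

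At the Sec61 channel and its partners all 6 genes had a difference below 0, and SEC62 passed. SEC62 (ENSG00000008952) works beside the channel, mainly for short secretory proteins that arrive after their translation has ended. It had 2677, 1899 and 1699 normalized counts in the Flag-IPs against 1286, 1278 and 1342 in the HA-IPs. The 3 HA-IPs were close together, at 1302 ± 35 (SD, n = 3), whereas the Flag-IPs were spread over 2092 ± 516, with Flag-IP 1 far above the others. The log2 difference was -0.66 (SE 0.13, adjusted p = 0.0084). The order of the 6 libraries by SEC62 was the same as their order by the summed heart muscle genes, from Flag-IP 1 through Flag-IP 2, Flag-IP 3, HA-IP 3 and HA-IP 1 to HA-IP 2, and the part of the heart muscle RNA in the difference was not tested. Without Flag-IP 1, the difference of SEC62 was -0.46 and still passed.

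The channel subunits themselves did not pass in limma, although DESeq2 called SEC61G (adjusted p = 0.027) and limma after quantile scaling called SEC61A1 (adjusted p = 0.047). SEC61A1, the pore-forming subunit with the highest level of the group, had 8984, 9395 and 9649 normalized counts in the Flag-IPs against 9078, 8872 and 8554 in the HA-IPs, and the groups overlapped (-0.08, SE 0.048, adjusted p = 0.31). SEC61G, the small gamma subunit, had 260, 170 and 145 in the Flag-IPs against 98.8, 108 and 153 in the HA-IPs. Its log2 difference, -0.65 (SE 0.22, adjusted p = 0.080), was close to that of SEC62, but HA-IP 3 lay above Flag-IP 3. SEC61B, the beta subunit, showed the same overlap (-0.39, SE 0.19, adjusted p = 0.21). The second pore subunit SEC61A2 (-0.21) and SEC63 (-0.09), which recruits the lumenal chaperone BiP to the channel, did not pass either. On the level per kilobase the subunits of the channel were unequal, at 2547 normalized counts for SEC61A1, 543 for SEC61B and 367 for SEC61G.

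The translocon-associated protein complex sits beside Sec61 and helps some chains to enter. It was the group with the largest share of its members higher in the Flag-IPs, 3 of 4. SSR2 (ENSG00000163479) had 3532, 3658 and 3356 normalized counts in the Flag-IPs against 2586, 2687 and 2707 in the HA-IPs. The gap between the groups was much larger than the spread within them, with a log2 difference of -0.40 (SE 0.052) and the smallest adjusted p of all members, 0.00096. SSR3 (ENSG00000114850) had 1508, 1297 and 1199 in the Flag-IPs against 1074, 1014 and 1011 in the HA-IPs (-0.36, SE 0.081, adjusted p = 0.015). SSR4 (ENSG00000180879) had 756, 653 and 605 against 463, 523 and 495 (-0.44, SE 0.094, adjusted p = 0.012), a call lost once trends on GC content and length were removed (-0.19, adjusted p = 0.14). For SSR3 and SSR4 Flag-IP 1 was the highest library, yet the groups did not overlap. The fourth subunit, SSR1, had 3547, 3119 and 2920 in the Flag-IPs against 3020, 2927 and 3028 in the HA-IPs and did not pass (-0.09, adjusted p = 0.43).

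None of the 5 signal peptidase genes passed in the reported limma comparison. All 5 differences were below 0, except that of SPCS2 without Flag-IP 1. The median was -0.26, and 4 had an unadjusted p under 0.05. On the recovered reads edgeR called 1 of them and DESeq2 called 2, in the Flag-IP direction. Limma called SEC11A with totals set equal (adjusted p = 0.020) or without HA-IP 3 (0.028). It called SPCS3 with trends on GC content and length removed (0.029), and SPCS1 and SPCS3 without Flag-IP 3 (0.030 and 0.0028). The catalytic subunit SEC11A came nearest to the threshold, with 2165, 2027 and 2212 normalized counts in the Flag-IPs against 1718, 1779 and 2014 in the HA-IPs (-0.22, SE 0.068, adjusted p = 0.056). The groups of SEC11A did not overlap, whereas those of the other 4 genes did. SPCS1 (-0.33, adjusted p = 0.11), SPCS3 (-0.33, adjusted p = 0.084), the second catalytic subunit SEC11C (-0.26, adjusted p = 0.12) and SPCS2 (-0.04, adjusted p = 0.82) are the remaining subunits.

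The 4 protein disulfide isomerases, which work inside the ER lumen, had differences of 0.04 to 0.09, some of which changed sign (PDIA4 and PDIA6 with quantile scaling, PDIA5 with totals set equal or without Flag-IP 1), and 0 of 4 passed in limma, at an unadjusted p under 0.05, in edgeR or in DESeq2. PDIA3, which folds glycoproteins together with calnexin and calreticulin, had the highest level, with 14531, 17064 and 17723 normalized counts in the Flag-IPs against 16678, 17762 and 18007 in the HA-IPs (0.09, SE 0.070, adjusted p = 0.44). Flag-IP 1 was the lowest library of PDIA3 and the other 5 lay close together. PDIA6 and PDIA4 had non-overlapping groups, but the gaps were small, with differences of 0.07 (adjusted p = 0.37) and 0.08 (adjusted p = 0.25). Per kilobase, PDIA6 had the highest level of all 56 members, at 6219 normalized counts.

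All 11 COPII genes had a difference above 0, except SEC13 with totals set equal or without Flag-IP 2, Flag-IP 3, HA-IP 2 or HA-IP 3, and SEC13 and SEC23A with quantile scaling. The median was 0.16, and 3 genes passed the test. SEC24 proteins choose the cargo. SEC24B (ENSG00000138802) had 2140, 2046 and 2225 normalized counts in the Flag-IPs against 2623, 2626 and 2554 in the HA-IPs. The HA-IPs were at 2601 ± 41 (SD, n = 3) and all lay above the Flag-IPs (0.28, SE 0.052, adjusted p = 0.0063). SEC24A (ENSG00000113615) had 2066, 2033 and 2169 against 2415, 2415 and 2479 (0.22, SE 0.051, adjusted p = 0.017). SEC23IP (ENSG00000107651), which binds the SEC23 proteins at ER exit sites, had 6601, 6518 and 6960 against 8021, 7830 and 8077 (0.25, SE 0.046, adjusted p = 0.0061). Here again the HA-IPs stood apart from every Flag-IP.

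The other 8 COPII genes did not pass in limma, although the groups of 6 of them did not overlap. SEC31A, of the outer cage, was nearest to the threshold (0.16, SE 0.050, adjusted p = 0.053), and it passed in DESeq2 (adjusted p = 0.046) and with trends on GC content and length removed (adjusted p = 0.046). The cargo adaptor SEC24D (0.20, adjusted p = 0.073), the scaffold of exit sites SEC16A (0.16, adjusted p = 0.095) and the cargo adaptor SEC24C (0.13, adjusted p = 0.11) came next. SEC16A had 9292, 9421 and 10330 normalized counts in the Flag-IPs against 10565, 11508 and 10363 in the HA-IPs, and had the highest mean of the COPII genes. The GTPase-activating subunits SEC23A and SEC23B had 0.06 and 0.11. SEC13, which also belongs to the nuclear pore, had 0.01, and SEC31B, with the lowest level of the group, had 0.10. The paralogs of SEC24 thus all had differences of 0.13 to 0.28, and whether SEC24A and SEC24B differ from SEC24C and SEC24D was not tested.

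The SEC22 genes divided. SEC22B (ENSG00000265808), the SNARE of transport between ER and Golgi, had 2841, 2854 and 2890 normalized counts in the Flag-IPs against 2487, 2461 and 2401 in the HA-IPs. Both groups were tight, at 2862 ± 25 and 2449 ± 44 (SD, n = 3), and the difference was -0.22 (SE 0.048, adjusted p = 0.012). SEC22A (-0.10) and SEC22C (0.05), related proteins without the SNARE motif, had overlapping groups and did not pass.

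Of the 7 COPI coat genes found by symbol 5 passed, 4 higher in the HA-IPs and 1 higher in the Flag-IPs. The coat subunit ARCN1, whose symbol the rule does not name, did not pass (0.0066, adjusted p = 0.95). COPA (ENSG00000122218), the alpha subunit of the outer layer, was the most abundant member, with 18666, 18660 and 20530 normalized counts in the Flag-IPs against 22580, 22347 and 22328 in the HA-IPs (0.22, SE 0.051, adjusted p = 0.017). COPB2 (ENSG00000184432), the beta-prime subunit that pairs with COPA, had 8614, 8513 and 9115 against 10208, 10065 and 10489 (0.23, SE 0.047, adjusted p = 0.0099). For both partners Flag-IP 3 was the highest Flag-IP and still lay below every HA-IP. COPB1 (ENSG00000129083), the beta subunit of the inner layer, had 6854, 6434 and 7066 against 8688, 7848 and 8253 (0.28, SE 0.054, adjusted p = 0.0075). COPG2 (ENSG00000158623), a gamma subunit, had 3751, 3846 and 3938 against 4388, 4319 and 4566 (0.20, SE 0.048, adjusted p = 0.019). With quantile scaling COPA lost its call (adjusted p = 0.089), and with totals set equal COPG2 did (adjusted p = 0.053). The gamma paralog COPG1 had a difference of 0.10 and did not pass (SE 0.045, adjusted p = 0.16).

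COPE (ENSG00000105669), the epsilon subunit that binds COPA, went the other way, with 2375, 2344 and 2229 normalized counts in the Flag-IPs against 2022, 2066 and 1904 in the HA-IPs (-0.21, SE 0.055, adjusted p = 0.027). The groups did not overlap, so genes of a single coat were called in opposite directions. The zeta subunit COPZ1 had the lowest difference of the coat but did not pass in limma (-0.30, SE 0.093, adjusted p = 0.054), and its HA-IP 3 lay above its Flag-IP 3. It passed in DESeq2 (adjusted p = 0.017) and with totals set equal (adjusted p = 0.032). COPE and COPZ1 are the shortest COPI transcripts, and with the trends of each library on GC content and transcript length removed, COPE no longer passed (-0.08, adjusted p = 0.38), COPZ1 did (-0.25, adjusted p = 0.046), and the 4 genes higher in the HA-IPs kept their calls.

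The p24 proteins are short membrane proteins that cycle between ER and Golgi. The group also holds the p24-related TMED8. All 10 genes had a difference below 0, except TMED3 with trends on GC content and length removed. The median was -0.18, and 2 passed. TMED5 (ENSG00000117500) had 2330, 2464 and 2243 normalized counts in the Flag-IPs against 1871, 1822 and 2151 in the HA-IPs (-0.27, SE 0.069, adjusted p = 0.027). TMED4 (ENSG00000158604) had 2591, 2619 and 2505 against 2103, 2300 and 2280 (-0.21, SE 0.054, adjusted p = 0.029). The groups of both genes did not overlap, and HA-IP 3 was the highest HA-IP of TMED5. TMED9, with the highest level of the family, had 4926, 4968 and 5193 against 4686, 4901 and 5088 and did not pass (-0.04, SE 0.050, adjusted p = 0.66). TMED6 was the member with a mean under 50 normalized counts, at 28.6, 27.6 and 18.4 against 17.6, 12.9 and 22.1 (-0.49, SE 0.34, adjusted p = 0.40). The widely expressed TMED2 and TMED10, which form a core pair of the family, had differences of -0.16 and -0.12.

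**Figure D2:**
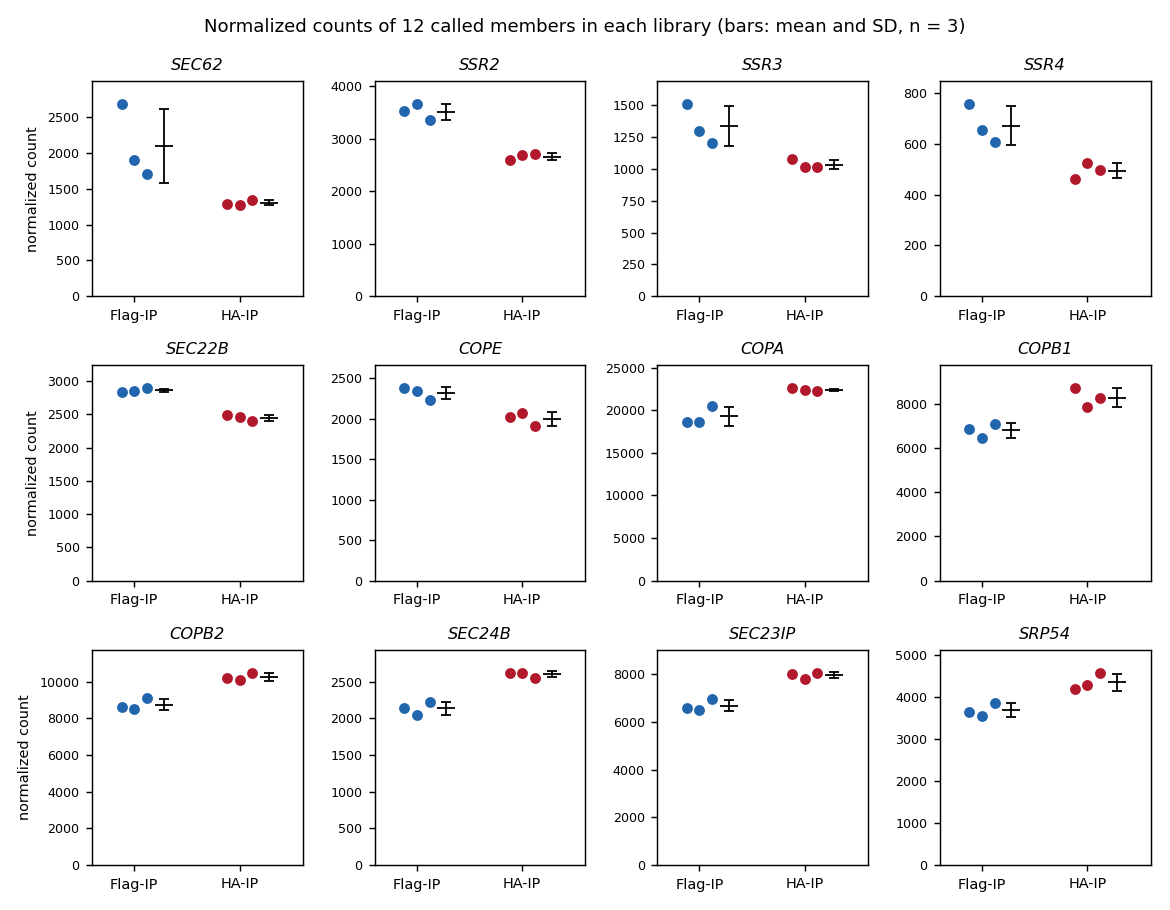
Normalized counts of 12 of the 17 genes that passed, with a point for each library (blue, Flag-IP; red, HA-IP), the mean as a horizontal line and the SD as bars (n = 3), on linear axes that start at 0. In no panel do the groups overlap, and SEC62 shows the widest spread, 1699 to 2677 in the Flag-IPs.

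The members were then arranged by where the encoded protein resides, in classes that were chosen after the differences had been seen and that carry no test. Of 24 genes whose products are cytosolic or coat proteins, 9 were higher in the HA-IPs (37.5%, against 5.79% of all genes). COPE was higher in the Flag-IPs (4.17% of the class, against 7.10% of all genes). The median difference of this class was 0.14. Of 27 genes whose products are inserted in membranes of the ER or of the ER-Golgi pathway, 0 were higher in the HA-IPs by limma (against 5.79% of all genes). The count was 0 also at an unadjusted p under 0.05, in edgeR and in DESeq2. In the Flag-IPs 7 were higher (25.9% of the class, against 7.10% of all genes), and the median was -0.22. A difference below 0 was found for 26 of the 27, against 8577 of all 16834 genes. The exception was SEC22C, with SEC22A added under quantile scaling, SEC22A and SPCS2 without Flag-IP 1, and TMED3 once trends on GC content and length were removed, whereas SEC22C too was below 0 with totals set equal. The 4 lumenal isomerases had a median of 0.077, and TMED8, the p24-related gene left without a class, had -0.05.

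The same contrast was then read library by library. The classes were chosen after the differences had been seen, so these values describe the contrast again and are no separate support. Relative to each gene's mean over the 6 libraries, the median of the cytosolic class was -0.088, -0.100 and -0.055 in the Flag-IPs against 0.063, 0.056 and 0.076 in the HA-IPs. The median of the membrane class was 0.27, 0.078 and 0.034 in the Flag-IPs against -0.13, -0.13 and -0.037 in the HA-IPs. Within each class the groups did not overlap, but in the membrane class Flag-IP 1 stood well above the other Flag-IPs, and HA-IP 3 lay nearest to the Flag-IPs. The heart muscle sum was highest in Flag-IP 1 and, among the HA-IPs, in HA-IP 3, and its part in the contrast was not tested. Without Flag-IP 1 the median of the membrane class was -0.18 and that of the cytosolic class 0.14, with 7 and 9 genes called as before.

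**Figure D3:**
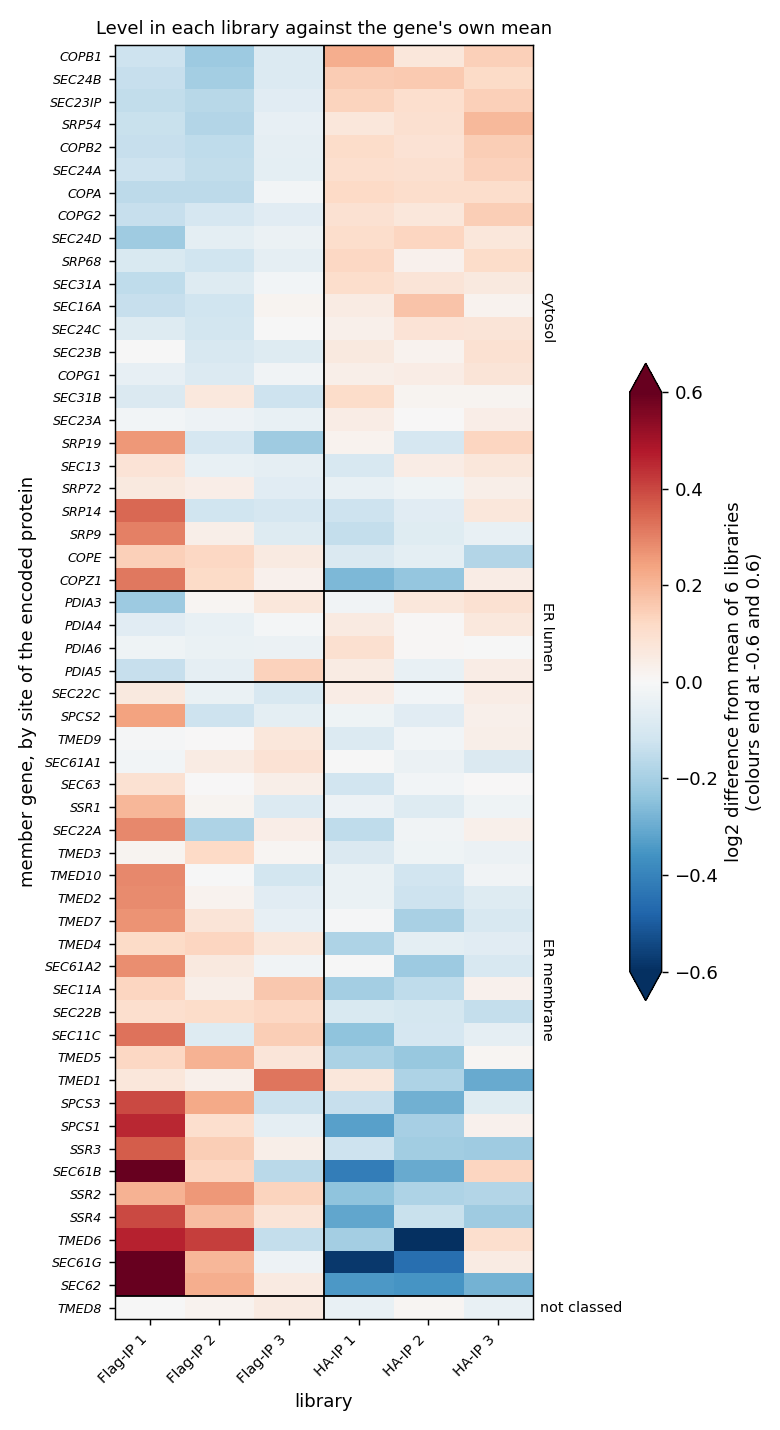
Level of each member in each of the 6 libraries as log2 difference from the gene's own mean, red above and blue below, with colours that end at -0.6 and 0.6 and genes grouped by the site of the encoded protein. Most cytosolic genes are blue in the Flag-IPs and red in the HA-IPs, most membrane genes the reverse, and Flag-IP 1 is the darkest column of the membrane block.

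Transcript length moved with the difference. Across the 56 members, Spearman's rho between the difference and the length of the canonical transcript was 0.38, and across 13091 genes with a mean of at least 50 it was 0.27, both as descriptions over genes that share the same 6 libraries. The members of the cytosolic class had a median length of 3306 bases and those of the membrane class 2691. With the trends on GC content and length removed per library, rho was 0.15 over the members and -0.011 over the other set. After this step the medians were 0.13 for the cytosolic and -0.17 for the membrane class, with 10 genes of the cytosolic class higher in the HA-IPs and 7 of the membrane class higher in the Flag-IPs (backgrounds of 8.15% and 7.39% of 16683 genes). Of the 17 called members, 15 stayed called, SEC62 among them (-0.67), and COPE and SSR4 did not.

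**Figure D4:**
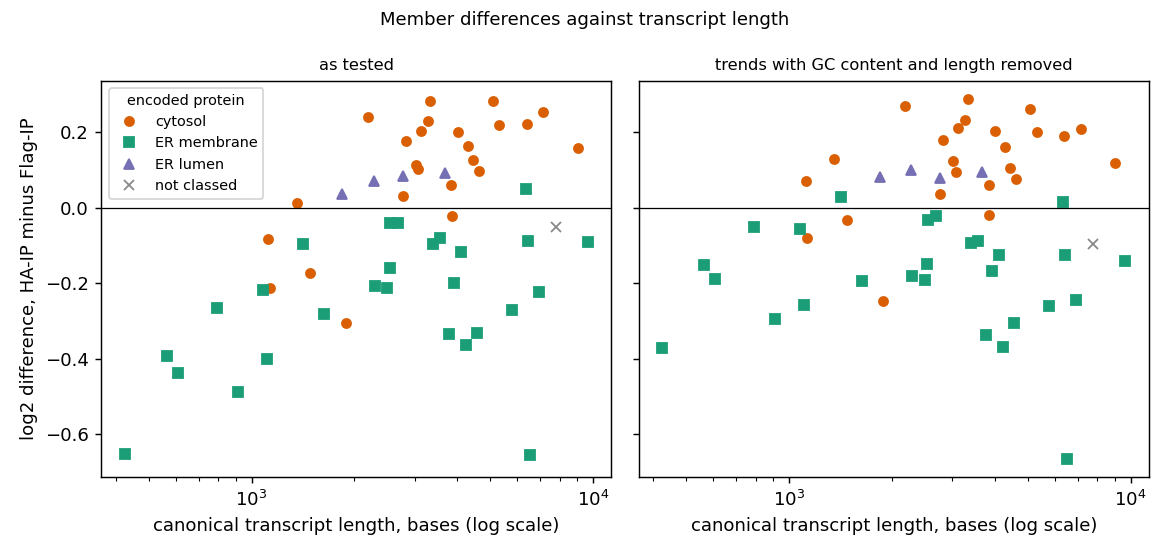
Log2 difference of HA-IP minus Flag-IP of the members against canonical transcript length in bases (log scale), as tested on the left and with trends on GC content and length removed on the right, with symbols for the site of the encoded protein. The membrane genes lie mostly below the cytosolic genes in both panels; rho over the members is 0.38 on the left and 0.15 on the right.

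The promoters of the members were searched for 9 short motifs, chosen after the differences were known, to show what the called genes share in sequence. RefSeq windows of GRCh38.p14 were found for 51 of the 56 members, 70 windows in all, and the 250 bases before each start were read on both strands. TGACGTG, the core of the site known from the unfolded protein response, was in 10 of 70 member windows (14.3%), against 1.68% of the 35116 windows of all genes. These windows belong to 8 genes. COPB1, COPB2 and SEC24A were higher in the HA-IPs, SEC62, SSR3 and SSR4 were higher in the Flag-IPs, and SEC13 and SRP19 did not pass. The motif was thus in promoters of genes called in either direction. The 6 sites of called genes are shown in the gene's direction of transcription (coding strand) with up to 40 bases on each side. The 7 letters of the motif or of its reverse complement CACGTCA are in capitals.

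COPB1: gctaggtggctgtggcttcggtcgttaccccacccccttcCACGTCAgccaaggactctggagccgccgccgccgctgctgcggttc
COPB2: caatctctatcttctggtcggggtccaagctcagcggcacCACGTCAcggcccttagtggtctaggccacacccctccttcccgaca
SEC24A: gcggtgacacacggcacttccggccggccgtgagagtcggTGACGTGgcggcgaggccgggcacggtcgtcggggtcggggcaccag
SEC62: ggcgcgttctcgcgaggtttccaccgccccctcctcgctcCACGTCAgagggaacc
SSR3: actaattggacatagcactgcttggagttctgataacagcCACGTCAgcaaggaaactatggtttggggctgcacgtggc
SSR4: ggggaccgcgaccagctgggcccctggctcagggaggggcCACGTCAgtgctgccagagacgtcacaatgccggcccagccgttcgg

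The shown stretches lie at chr11:14499812-14499898 (minus strand) for COPB1, chr3:139389796-139389882 (minus strand) for COPB2, chr5:134648566-134648652 (plus strand) for SEC24A, chr3:169966751-169966806 (plus strand) for SEC62, chr3:156554126-156554205 (minus strand) for SSR3 and chrX:153794500-153794586 (plus strand) for SSR4. The first base of the motif lies 16 bases before the start in SEC62, 40 in SSR3, 47 in COPB1, 128 in SSR4 and 179 in SEC24A. The COPB2 site lies 195 or 162 bases before the start, depending on which of its RefSeq starts is taken. The longer ER stress response element, CCAAT and CCACG with 9 bases of any kind between them, was in 1 member window, that of PDIA6 (1.43% against 0.0740% of all windows), and the related second form, ATTGG and CCACG with any base between them, was in none of the 70.

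The remaining motifs were read in the same way. CCACG, which TGACGTGG contains on the opposite strand, was in 71.4% of the member windows against 33.5% of all, in 7 genes higher in the HA-IPs and 6 higher in the Flag-IPs. CCGGAAG, the core of ETS sites, was in 31.4% against 8.52%, in 4 and 3 such genes. The CCAAT box was in 37.1% against 32.0%, and in 23 of the 51 member genes with a window, 17 of them not called. Among the called genes it was found in 6 higher in the Flag-IPs (COPE, SEC22B, SSR2, SSR3, SSR4 and TMED5) and in none of those higher in the HA-IPs. This split was picked out among 9 motifs and was not tested. CACGTG was in 12.9% against 6.34%, the NRF1 site, GCGCAT followed by GCGC, in 2.86% against 1.03%, and TTTGAA, the CHR element of cell cycle genes, in 7.14% against 13.3%. A match describes letters in a window, and no binding was measured.

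Around the members, 87 other genes of the pathway were followed. The HA-IPs held more of 9 (10.3%, against 5.79% of all genes) and the Flag-IPs more of 18 (20.7%, against 7.10%). The median was -0.017. The oligosaccharyltransferase, which attaches sugars to chains at the channel, held genes called both ways: RPN2 (0.26, adjusted p = 0.0060) and DDOST (0.16) were higher in the HA-IPs, and the small subunits OST4, TMEM258, DAD1 (-0.46, adjusted p = 0.0055) and KRTCAP2 were higher in the Flag-IPs. OST4 had the largest difference of the 87, with 796, 464 and 370 normalized counts in the Flag-IPs against 132, 171 and 234 in the HA-IPs (-1.56, SE 0.26, adjusted p = 0.0035). Its order of libraries within the Flag-IPs was that of SEC62. Of 10 subunits of the ER membrane protein complex, an insertase, EMC1 was higher in the HA-IPs and EMC2, EMC4, EMC6, EMC7 and EMC10 were higher in the Flag-IPs. The 87 genes were not placed in classes by site. RPN2, DDOST and EMC1 are ER membrane proteins, so membrane proteins of the pathway were called in both directions.

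Tail-anchored proteins are inserted by a separate route, and of its 7 genes the cytosolic factors BAG6 (0.21) and GET4 (0.76) were higher in the HA-IPs, while the membrane receptor subunits GET1 (-0.45, adjusted p = 0.0080) and CAMLG and the cytosolic factor SGTA were higher in the Flag-IPs. Of 16 genes of ER folding, the chaperone BiP (HSPA5), with 28443, 29239 and 31307 normalized counts in the Flag-IPs against 34830, 34291 and 35323 in the HA-IPs (0.23, SE 0.051, adjusted p = 0.013), and the oxidase ERO1A (0.27, adjusted p = 0.014) were higher in the HA-IPs, and PPIB was higher in the Flag-IPs. The list of 13 regulators of COPII and COPI also held ARCN1, a subunit of the COPI coat. In this list TFG, which organises ER exit sites, was higher in the HA-IPs (0.24, adjusted p = 0.013) and the other 12 did not pass. Among 22 cargo receptors and fusion factors, MCFD2 was higher in the HA-IPs, and ERGIC2 (-0.42, adjusted p = 0.0064), ERGIC1 and the KDEL receptors KDELR1 and KDELR3 were higher in the Flag-IPs. Of the 7 genes of the SRP receptor and its neighbours, TRAM1, a membrane protein beside the channel, was higher in the Flag-IPs (-0.29).

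Some members share sequence with other transcripts, and whether reads were counted by strand is not given in the sources used here. Of the 56, 10 share bases of canonical exons with another gene of the table, COPG2 among the called ones, with 228 of its 3134 bases shared with MEST on the opposite strand. The overlap is largest for SPCS1, which shares 2705 of 3786 bases with NEK4, so its value is uncertain. TMED7 shares 810 bases on its own strand with the readthrough gene TMED7-TICAM2.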

How the data were processed

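The 6 libraries, 3 Flag-IPs and 3 HA-IPs, were sequenced after poly(A) selection as read pairs of 150 bases. The submitters' notes name Trimmomatic 0.36, STAR 2.5.2b, featureCounts, Subread 1.5.2, DESeq2 (given as 3.16) and GRCh38, and the authors excluded genes with few reads. The deposited values are a normalized signal per gene, in which each library's read counts had been divided by its DESeq2 size factor by the authors. Columns of the authors' own fold changes and adjusted p-values were not used.

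The values divided by the value of 1 read were whole in 100% of cases (tolerance 0.01 reads), so depth was known. For HA-IP 2 the value of 1 read was within 0.01 of 1, and its reads were recovered in the same way. Replicates differed by more than sampling noise (chi-square per degree of freedom of 4.98 to 20.6).

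All 16834 genes were fitted with limma 3.58.1 (R 4.3.3) on log2(value + 1) with a variance trend, two-sided, with Benjamini-Hochberg adjustment over all genes and a threshold of 0.05. The pseudocount of 1 understates the change of low genes. An exact permutation test of 3 against 3 cannot go below 0.1. The fits were checked on simulated data, with changes larger than those of the members and the same dispersion for every gene. The check therefore cannot say how well differences as small as those of the members are found.

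Alternatives were other pseudocounts (0.1 and 10), a mean of at least 50, quantile, total and upper quartile scaling, edgeR 4.0.16 and DESeq2 1.42.0 on the recovered reads (901 and 1044 genes higher in the HA-IPs and 1230 and 1230 in the Flag-IPs), no variance trend, a replicate block, a stricter threshold of 0.01, leaving out each library, and removal of GC content and length trends (natural splines with 5 degrees of freedom, MASS 7.3.60.0.1, GENCODE 44, 16683 genes). The replicate numbers did not pair the libraries.

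Members and lists were chosen with earlier results of these data known. Named were all members that passed, the most abundant and the most different member of each role, and the 4 companion genes of smallest adjusted p for either group. Further genes were named after their values were seen. Plots used Python 3.11.15 and matplotlib 3.10.9.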

Additional observations from a re-analysis of the deposited data

How the results depend on the processing

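Among the 17 called members no difference changed sign in any alternative. All 17 kept their calls with edgeR, DESeq2, either pseudocount, the minimum mean, upper quartile scaling and without Flag-IP 1 or 3. Quantile scaling lost COPA and SRP68, an equal total COPG2 and SRP68, and removal of GC and length trends COPE and SSR4. Without a variance trend 0 members passed in limma in either direction (11 and 10 at an unadjusted p under 0.05), 0 and 0 of the other pathway genes did (12 and 19 unadjusted), and 6 and 182 of all genes were called for the HA-IPs and the Flag-IPs. At an adjusted p of 0.01, 4 and 2 members, 1 and 4 other pathway genes and 177 and 527 of all genes passed. With each library left out in turn, the members called for the HA-IPs numbered 1 to 13 and for the Flag-IPs 2 to 16, other pathway genes 0 to 14 and 4 to 22, and all genes 103 to 1550 and 517 to 1509. Without Flag-IP 2, 3 of the 17 kept their calls (SEC24B, SEC62 and SSR2), and without HA-IP 1, 2 or 3, 9, 7 and 8 did. The median over the members was -0.072 to -0.0080, the latter without Flag-IP 1. An equal total split all genes 471 against 1576, where the reported comparison gave 975 against 1196, and quantile scaling left 4 other pathway genes higher in the HA-IPs. For any change of a call with another scaling or trend the cause was not tested. The replicate block called 9 members for the HA-IPs and 6 for the Flag-IPs, and 752 and 910 of all genes, and lost TMED4 (adjusted p = 0.053) and TMED5 (0.062). Same-numbered libraries had correlations of their deviations of -0.16, 0.031 and -0.31, so the numbers give no pairing, and not every library correlated best with its own number.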

Other observations

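Some pseudogenes named after members showed values unlike those of their parent genes. GENCODE lists 28 such pseudogenes, and 5 could be followed. PDIA3P1 had 370, 262 and 175 normalized counts in the Flag-IPs against 89.6, 65.4 and 71.7 in the HA-IPs, a log2 difference of -1.77 (adjusted p = 0.0012), where PDIA3 had 0.09. SPCS2P4 had 49.3, 48.9 and 32.3 against 5.65, 5.94 and 12.1 (-2.37, adjusted p = 0.0031), where SPCS2 had -0.04. SEC63P1, left out of the members by the rule, had 35.1, 14.9 and 19.4 against 4.94, 3.96 and 11.03 (-1.68, adjusted p = 0.042), where SEC63 had -0.09. The groups of these 3 pseudogenes did not overlap, and all 3 were higher in the Flag-IPs. SPCS2P4 and SEC63P1 had means of only 25.7 and 14.9 normalized counts, so their differences rest on few reads. SRP9P1 (-1.07, adjusted p = 0.17) and SSR4P1 (0.31, adjusted p = 0.36) did not pass. Reads of a parent gene and its copy can be exchanged in counting, and their part in these values was not tested.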
